A study of Mus musculus with 32 samples.

Results

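The insulin-like growth factor binding proteins (IGFBPs) were followed in mouse liver as the 7 genes Igfbp1 to Igfbp7, out of 22180 genes measured. The genes were chosen by name as a family, with the rise of Igfbp1 in clamped mice already known from the measured values, and each gene was to be read from its brightest probe set, judged by the mean of the 32 arrays. Each of the 7 genes had exactly 1 probe set, so that choice selected nothing.

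The 32 arrays came from livers of male wild-type C57BL/6NTac mice aged 14 weeks, 1 array a mouse. All mice were fasted for 10 h and then given palm oil by gavage at 2 g/kg, or water as the control. Clamped mice entered a hyperinsulinemic-euglycemic clamp 6 h after the gavage, a procedure that holds blood glucose steady under a constant insulin infusion (15 pmol/kg/min here, after 110 min of tracer), and the liver was taken at its end. Basal mice gave their liver 6 h after the gavage, with no clamp. The groups were clamped palm oil mice (9), basal palm oil mice (9), clamped control mice (7) and basal control mice (7).

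Clamped mice had also carried a jugular catheter for 6 to 7 days, were sampled later and were killed with intravenous ketamine and xylazine rather than isoflurane. Their animal numbers ran from 15 to 32, against 33 to 52 in basal mice. The insulin infusion, the surgery, the anaesthetic, the longer procedure and the animal-number series therefore cannot be told apart in any clamped against basal difference. The labels do not say whether replicates were handled in separate litters or cages. The p-values therefore set differences only against the spread within groups among these 32 mice.

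IGFBPs are secreted proteins that bind insulin-like growth factors (IGFs) in blood and tissue, carry them and limit their access to the IGF receptor. The liver is the main source of circulating IGF1 and of several of its binding proteins. Hepatocytes make IGFBP1, whose gene is lowered by insulin through the FOXO1 transcription factor and raised by fasting, glucocorticoids, amino acid shortage and low oxygen. IGFBP3 and IGFBP5 form the long-lived ternary complex in blood with an IGF and the acid-labile subunit, the product of Igfals.

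In these livers Igfbp1 stood far higher in clamped than in basal mice whatever the gavage, and Igfbp5 was lower in clamped palm oil mice. Igfbp2, Igfbp3, Igfbp4, Igfbp6 and Igfbp7 passed the test in no comparison. Palm oil changed none of the 7 genes past the test, in basal or in clamped mice. Values below are log2 expression values as deposited, differences are in log2 units with the standard error (SE) of the limma fit, and adjusted p-values are Benjamini-Hochberg values over all 22180 genes, called at 0.05. Group means carry the SD, with n = 9 in each palm oil group and n = 7 in each control group. In whole liver, fewer cells of a type and less RNA per cell cannot be told apart.

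Over the whole table, 1678 genes (7.57%) passed the test between clamped and basal palm oil mice, of which 835 were higher and 843 lower in clamped mice. Between clamped and basal control mice 1940 genes (8.75%) passed, 1033 higher and 907 lower. With each array centred on a common median the splits were 980 higher and 602 lower in palm oil mice and 1275 higher and 668 lower in control mice. Hepatocyte markers had a mean level of 9.99 to 10.39 on the arrays. Pancreatic acinar markers, which liver should lack, had a mean level over 6 on 12 arrays, namely 2 clamped palm oil, 5 basal palm oil, 1 clamped control and 4 basal control arrays. The 7 late basal arrays, with animal number 44 and up (3 palm oil and 4 control), had an interquartile range of 2.44 to 2.54, against 2.72 to 2.96 on the other 9 basal arrays. Neutrophil markers had a mean level of 3.15 to 4.22 on clamped arrays and 2.00 to 2.78 on basal arrays.

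The sequences before the start sites of Igfbp1 and Igfbp5 are shown because these genes carry the differences described below. The Igfbp1 window lies at chr11:7197537-7197786 on the plus strand and the Igfbp5 window at chr1:72874866-72875115 on the minus strand, both from RefSeq on build GRCm38.p6, each the 250 bases upstream of the start, read 5′ to 3′. Capitals in the Igfbp1 line mark the left arm CAAAACA and the right arm TTATTTTG of the insulin response element through which FOXO1 is known to act on this gene.
Igfbp1: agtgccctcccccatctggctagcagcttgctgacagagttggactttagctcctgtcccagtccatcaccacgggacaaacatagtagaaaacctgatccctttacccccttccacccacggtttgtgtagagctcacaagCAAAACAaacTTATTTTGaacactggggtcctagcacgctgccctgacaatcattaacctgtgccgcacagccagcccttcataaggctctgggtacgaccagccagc
Igfbp5: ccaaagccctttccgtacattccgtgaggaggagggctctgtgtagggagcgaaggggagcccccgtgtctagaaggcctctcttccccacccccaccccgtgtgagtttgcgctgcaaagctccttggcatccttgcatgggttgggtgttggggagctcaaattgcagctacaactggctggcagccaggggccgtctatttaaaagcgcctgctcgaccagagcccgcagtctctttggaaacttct

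Searched on both strands, the left arm CAAAACA occurred in 5.56% of 32851 RefSeq promoter windows of the same length, and the right arm, written CAAAATAA on the other strand, in 1.49%. Both were present in 46 windows (0.14%). All 7 genes matched the promoter table, with 8 windows among them, and only the Igfbp1 window held either arm, at -108 to -102 and at -98 to -91 from the start. The Igfbp1 window also held GTTAAT, letters of the HNF1 motif found in 6.43% of windows, on the minus strand at -56 to -51. The forkhead letters GTAAACA (3.17% of windows), the ATF4 letters TGATGNAA (3.45%) and the STAT letters TTCNNNGAA (7.02%) occurred in none of the 8 windows. The glucocorticoid receptor letters TGTTCT (16.08% of windows) occurred only in the Igfbp2 window, and the hypoxia response letters ACGTG (16.57%) in those of Igfbp2 and Igfbp7. ACGTG matched the Igfbp2 window on both strands at overlapping positions. None of these motifs occurred in the printed Igfbp5 window. A match describes letters in a window and is not a measured binding site.

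**Figure D1:**
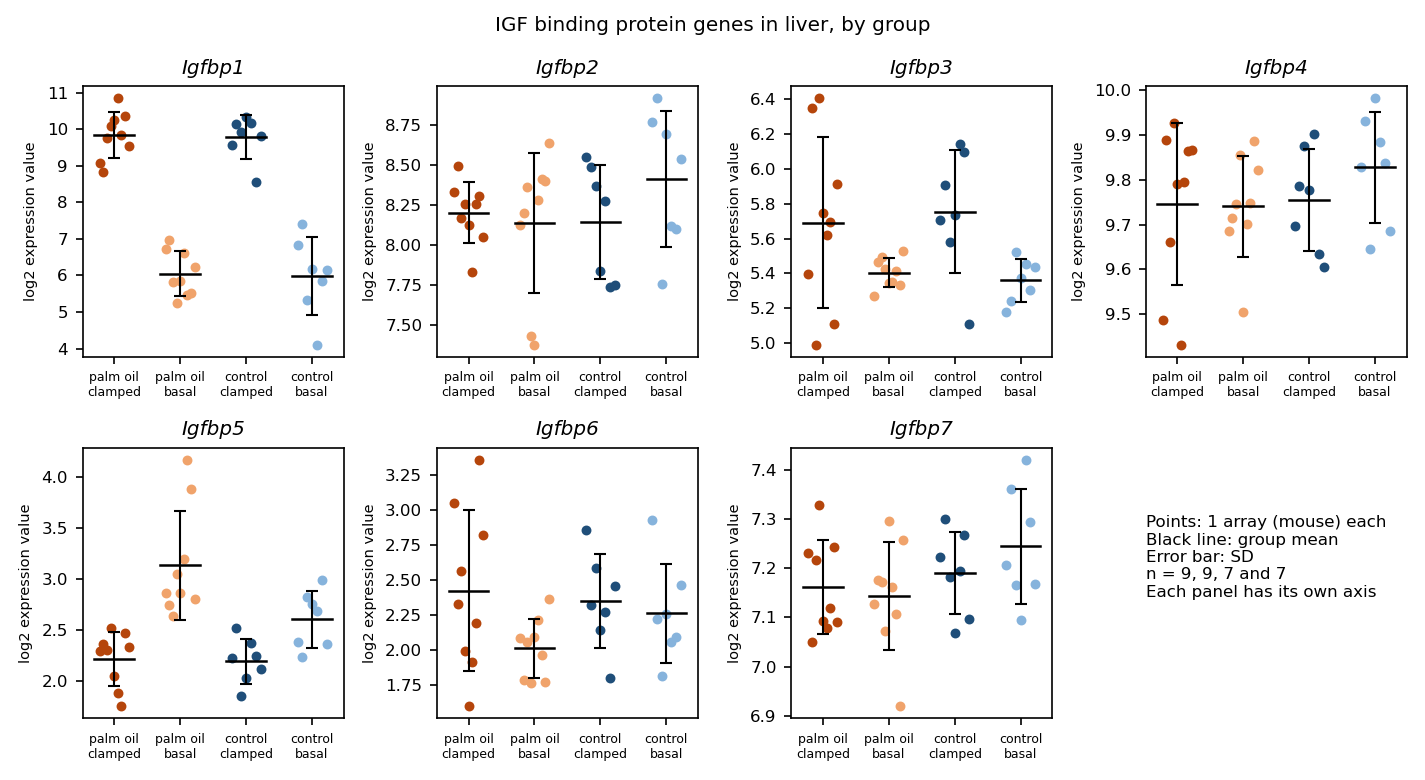
Expression values (log2, vertical axis, a separate scale in each panel) of the 7 IGFBP genes in clamped and basal palm oil mice (9 each) and clamped and basal control mice (7 each). Points are single arrays, black lines are group means and error bars are SD. Igfbp1 lies between 8.57 and 10.85 in clamped mice and between 4.11 and 7.41 in basal mice, and Igfbp5 in clamped palm oil mice (1.75 to 2.52) lies below every basal palm oil mouse (2.64 to 4.16).

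Igfbp1, the hepatocyte-secreted member that insulin is known to lower, showed the widest separation between clamped and basal mice. In clamped palm oil mice its lowest, median and highest values were 8.84, 9.86 and 10.85, against 5.25, 5.85 and 6.98 in basal palm oil mice. In clamped control mice they were 8.57, 9.94 and 10.34, against 4.11, 6.14 and 7.41 in basal control mice. Every clamped mouse was higher than every basal mouse, and the lowest clamped value, 8.57, belonged to replicate 6 of the clamped control mice.

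Igfbp1 averaged 9.85 ± 0.63 in clamped palm oil mice and 6.05 ± 0.61 in basal palm oil mice, a difference of 3.80 (SE 0.32), or 13.9-fold. It averaged 9.79 ± 0.60 in clamped control mice and 5.98 ± 1.06 in basal control mice, a difference of 3.81 (SE 0.36), or 14.1-fold. These differences are given as a description, with no test, because the gene's behaviour was known when the family was chosen. Without the arrays over 6 in acinar markers the difference was 3.70 in palm oil mice and 4.56 in control mice. The larger value in control mice goes with the basal control arrays, where Igfbp1 averaged 6.56 on the 4 arrays over 6 in acinar markers and 5.21 on the other 3.

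Between palm oil and control mice no difference of Igfbp1 passed the test in either state. The palm oil minus control difference was 0.06 (SE 0.34, 95% interval -0.64 to 0.75, adjusted p = 1.0) in clamped mice and 0.07 (SE 0.34, interval -0.62 to 0.76, adjusted p = 0.999) in basal mice. The interaction, the clamped minus basal difference in palm oil mice less that in control mice, was -0.01 (SE 0.48, interval -0.99 to 0.97). Effects of palm oil on Igfbp1 inside these intervals, up to 1.68-fold higher or 1.56-fold lower in clamped mice, are not excluded by these mice. The intervals do not give the smallest effect that the test adjusted over all genes could call. Without the arrays over 6 in acinar markers the basal difference was 0.99 and the interaction -0.86, neither past the test.

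Igfbp5, a matrix-binding member made mainly by stromal cells, was the other gene of the family that differed. In clamped palm oil mice its lowest, median and highest values were 1.75, 2.30 and 2.52, against 2.64, 2.86 and 4.16 in basal palm oil mice. All 9 clamped palm oil mice were below all 9 basal palm oil mice, a pattern shown by 0.586% of all genes. In clamped control mice the values were 1.85, 2.22 and 2.51, against 2.23, 2.68 and 2.99 in basal control mice. The control groups overlapped, with 4 of the 7 clamped mice below every basal one, where 1.16% of all genes had clamped control mice wholly below.

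Igfbp5 averaged 2.22 ± 0.26 in clamped palm oil mice and 3.13 ± 0.54 in basal palm oil mice, and fell by 0.91 log2 units (SE 0.16, limma adjusted p = 1.76e-04). It averaged 2.19 ± 0.22 in clamped control mice and 2.60 ± 0.28 in basal control mice, a difference of -0.41 (SE 0.18, interval -0.78 to -0.04) that did not pass (limma adjusted p = 0.181). Whether the gavages differed in this was tested by the interaction, which was -0.50 (SE 0.24, unadjusted p = 0.0471, adjusted p = 1.0). In basal mice the palm oil minus control difference of Igfbp5 was 0.53 (SE 0.17, interval 0.18 to 0.88, unadjusted p = 0.00434, adjusted p = 0.960), and in clamped mice it was 0.02 (interval -0.33 to 0.38).

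The size of the Igfbp5 difference moved with 2 overlapping features of the basal arrays. In basal palm oil mice Igfbp5 averaged 3.38 on the 5 arrays over 6 in acinar markers and 2.82 on the other 4, and it averaged 3.61 on the 3 late arrays and 2.89 on the other 6. The 3 late arrays were all among the 5 over 6, so these features cannot be told apart there. Replicates 7 and 8 held the highest values (4.16 and 3.88), while the late replicate 9 was at 2.80. In basal control mice the pattern for acinar markers ran the other way, with 2.49 on the 4 arrays over 6 and 2.75 on the other 3. Without the arrays over 6 the clamped minus basal difference was -0.55 (limma adjusted p = 0.0160) in palm oil mice and -0.50 (limma adjusted p = 0.0468) in control mice, and the palm oil minus control difference in basal mice was 0.07.

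With the 7 late basal animals (numbers 44 and up) left out, the clamped minus basal difference of Igfbp5 was -0.67 (limma adjusted p = 0.00111) in palm oil mice and -0.29 (limma adjusted p = 0.412) in control mice. Within those 7 late basal arrays the palm oil minus control difference was 0.92, and within the other 9 basal arrays it was 0.41, neither past the test. No clamped array carries such a number, so a clamped against basal value within the late animals cannot be had. With that split of the basal arrays as a block the clamped minus basal difference of Igfbp5 was -0.75 (limma adjusted p = 0.00123) in palm oil mice and -0.13 (limma adjusted p = 0.790) in control mice. With the acinar marker level as a term it was -0.89 and -0.38. Against a minimum fold of 1.3 the difference in palm oil mice did not pass (limma adjusted p = 0.0866).

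**Figure D2:**
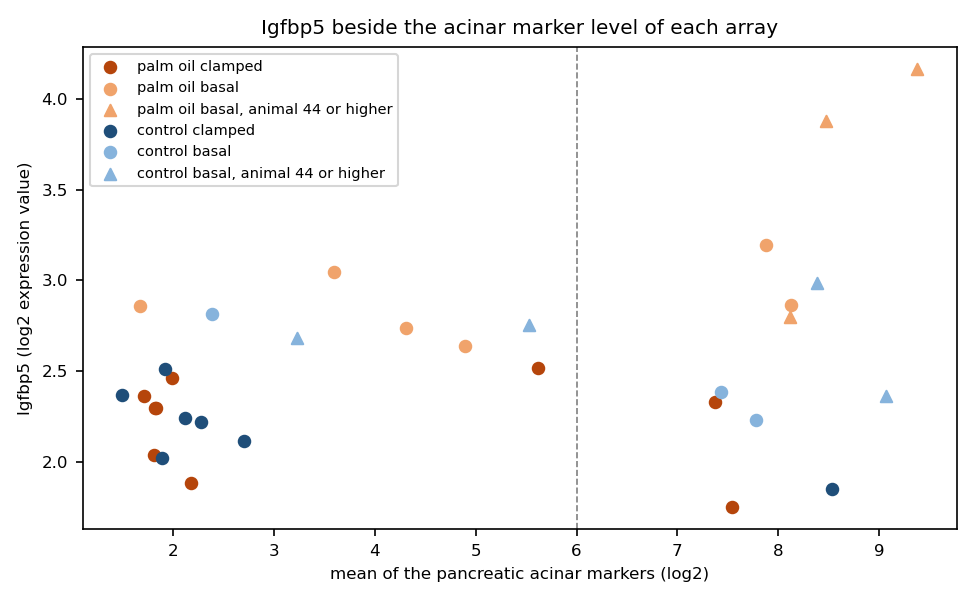
Igfbp5 (log2 expression value, vertical axis) against the mean log2 level of the pancreatic acinar markers (horizontal axis) on each of the 32 arrays, coloured by group, with triangles for the late basal animals (number 44 and up) and a dashed line at 6. The highest Igfbp5 value, 4.16 in a basal palm oil mouse, lies on an array over 6 and on a late animal, while on arrays at or under 6 the basal palm oil mice still average 2.82 and the clamped palm oil mice 2.27.

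Igfbp3, the main carrier of IGF1 in blood and in liver a product largely of non-parenchymal cells, did not pass the test, but its spread differed between the states. In clamped palm oil mice its lowest, median and highest values were 4.99, 5.69 and 6.40, against 5.27, 5.42 and 5.53 in basal palm oil mice. In clamped control mice they were 5.11, 5.73 and 6.14, against 5.18, 5.38 and 5.52 in basal control mice. Of the 9 clamped palm oil mice 6 were above every basal palm oil mouse and 2 below every one. Of the 7 clamped control mice 6 were above every basal control mouse and 1 below.

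Igfbp3 averaged 5.69 ± 0.49 in clamped and 5.40 ± 0.08 in basal palm oil mice, a difference of 0.29 (SE 0.14, interval -0.01 to 0.58, limma adjusted p = 0.281). It averaged 5.75 ± 0.35 in clamped and 5.36 ± 0.12 in basal control mice, a difference of 0.39 (SE 0.16, interval 0.06 to 0.73, limma adjusted p = 0.146). The fit used a spread shared by all groups, so these SEs average over the unequal SDs of Igfbp3. Palm oil minus control was -0.06 (interval -0.38 to 0.25) in clamped mice and 0.04 (interval -0.27 to 0.36) in basal mice.

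Igfbp2, a binding protein that liver secretes in quantity, overlapped between all groups. It averaged 8.20 ± 0.19 in clamped and 8.14 ± 0.44 in basal palm oil mice, a difference of 0.06 (SE 0.16, interval -0.27 to 0.40, limma adjusted p = 0.898). It averaged 8.14 ± 0.36 in clamped and 8.41 ± 0.43 in basal control mice, a difference of -0.27 (SE 0.19, interval -0.65 to 0.11, limma adjusted p = 0.452). Its values ran from 7.83 to 8.50 in clamped palm oil mice, the narrowest range of the 4 groups. The range was 7.38 to 8.64 in basal palm oil mice, where 2 mice were below every basal control mouse.

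Igfbp4, which binds IGFs and is opened by the protease PAPP-A, was among the steadiest of the 7. Its group means were 9.75 ± 0.18 in clamped and 9.74 ± 0.11 in basal palm oil mice, and 9.75 ± 0.11 in clamped and 9.83 ± 0.12 in basal control mice. The clamped minus basal difference was 0.01 (interval -0.15 to 0.16) in palm oil mice and -0.07 (interval -0.25 to 0.10) in control mice. These intervals leave room for changes of up to 1.12-fold in palm oil mice and 1.19-fold in control mice.

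Igfbp7, a vessel and matrix protein with low affinity for IGFs, was as steady. It averaged 7.16 ± 0.10 in clamped and 7.14 ± 0.11 in basal palm oil mice, and 7.19 ± 0.08 in clamped and 7.24 ± 0.12 in basal control mice. The differences were 0.02 (interval -0.12 to 0.15) and -0.05 (interval -0.21 to 0.10). Liver endothelial markers, with a mean level between 5.35 and 5.88 on the arrays, had 1 of 10 genes higher and 1 lower in clamped mice of each gavage. For scale, 3.76% of all genes rose and 3.8% fell in clamped palm oil mice, and 4.66% rose and 4.09% fell in clamped control mice.

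Igfbp6, which prefers IGF2, had low values with a wide range in clamped palm oil mice. Its lowest, median and highest values were 1.60, 2.33 and 3.36 in clamped and 1.76, 2.06 and 2.37 in basal palm oil mice, and 1.80, 2.32 and 2.86 in clamped and 1.81, 2.22 and 2.93 in basal control mice. The groups overlapped, with 4 clamped palm oil mice above every basal one and 1 below. The clamped minus basal difference was 0.42 (SE 0.18, interval 0.05 to 0.78, limma adjusted p = 0.181) in palm oil mice and 0.09 (SE 0.20, interval -0.32 to 0.50, limma adjusted p = 0.873) in control mice. The table holds no detection call, so how far Igfbp5 and Igfbp6, with means of 2.55 and 2.26 over all arrays in a table whose genes had a median of 1.83, stood above background is unknown.

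**Figure D3:**
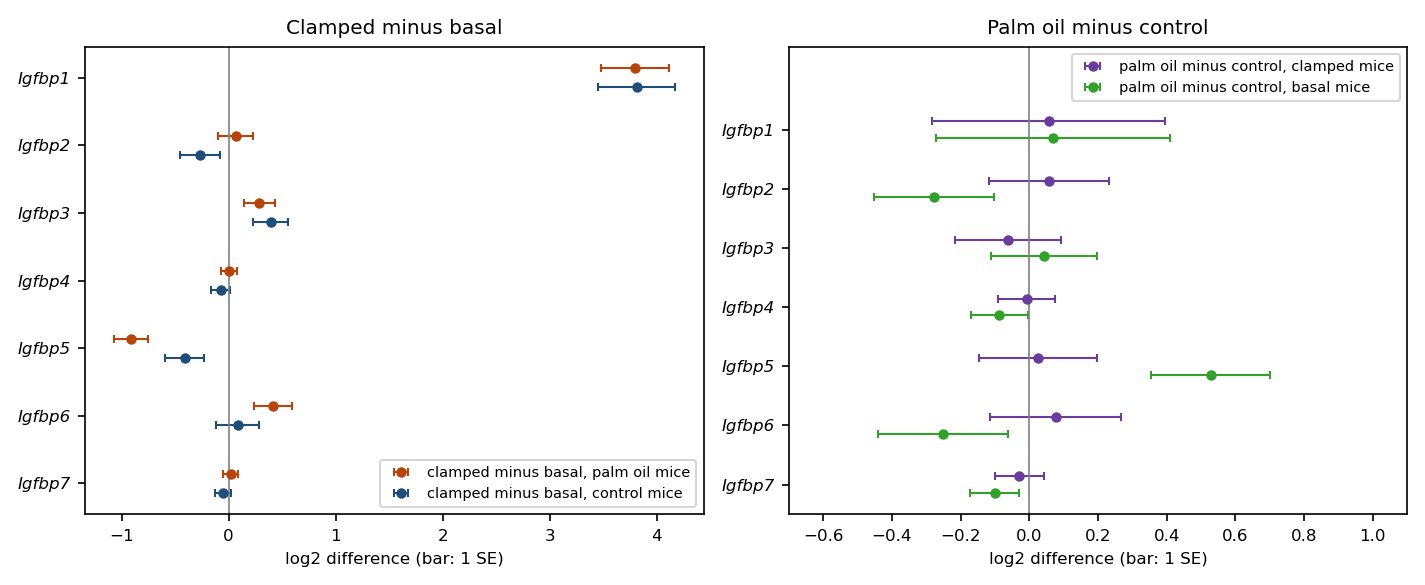
Differences of the 7 IGFBP genes (log2 units, horizontal axis, bars of 1 SE from the limma fit), clamped minus basal in palm oil and in control mice on the left, and palm oil minus control in clamped and in basal mice on the right. Igfbp1 stands at 3.80 and 3.81 and Igfbp5 at -0.91 and -0.41 on the left, while on the right the differences lie between -0.28 and 0.53.

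Of the 6 genes other than Igfbp1, 0 rose and 1 fell (Igfbp5) between clamped and basal palm oil mice, where 3.76% of all genes rose and 3.8% fell. Between clamped and basal control mice 0 of these 6 genes passed with limma, where 4.66% of all genes rose and 4.09% fell. At an unadjusted p under 0.05 they included Igfbp3 and Igfbp5, and the exact rank sum test called none of the 6 in control mice. Clamped mice lay wholly above basal mice for 0.866% of all genes in palm oil mice and 1.39% in control mice, and nothing is read from the place of Igfbp1 among them. The median difference of the 7 genes was 0.06 in palm oil mice and -0.05 in control mice, against -0.02 over all genes in each.

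Palm oil minus control and the interaction called 0 of the 7 genes, and 0% of all genes, with limma. At an unadjusted p under 0.05 limma gave 781 genes in clamped mice, 1134 in basal mice and 773 in the interaction. Of the family these included Igfbp5 in basal mice and in the interaction. An exact rank sum test per gene with Benjamini-Hochberg adjustment called 0 genes for palm oil in either state, but it could not decide this. Its smallest p, reached only where the groups stand fully apart, was 1.75e-04 in each state. That is too large for a gene standing apart by itself to pass adjustment over all genes. Nothing is therefore read from the lack of rank sum calls for palm oil. For none of the 7 genes did the palm oil and control groups stand fully apart. Over all genes, palm oil mice lay wholly below control mice for 0.00902% and above for 0% in the clamped state, and wholly above for 0.00902% and below for 0.00451% in the basal state. Over the 7 genes the 95% intervals of the palm oil difference ran from -0.64 to 0.75 in clamped mice and from -0.64 to 0.88 in basal mice.

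**Figure D4:**
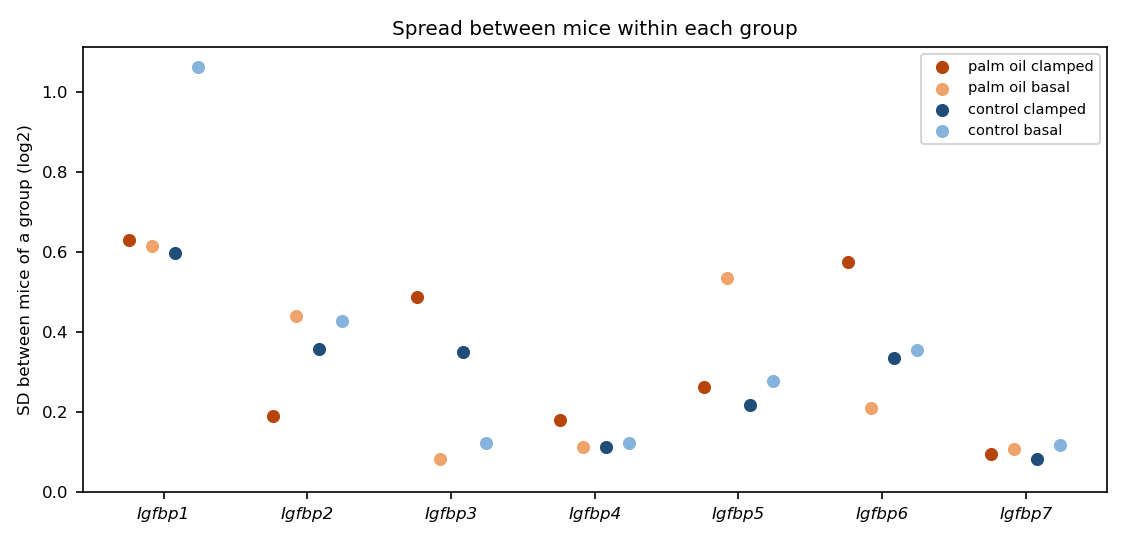
Standard deviation between mice (log2 units, vertical axis) of each IGFBP gene in the 4 groups (9, 9, 7 and 7 mice). Igfbp3 is the gene whose clamped groups (0.49 and 0.35) stand clear above its basal groups (0.08 and 0.12), and Igfbp1 in basal control mice has the largest SD of the family, 1.06.

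From mouse to mouse, correlations between pairs of the 7 genes had both signs, and none was tested. The extremes given here were picked out of all pairs. Over the 32 arrays, with each gene's deviations from its 4 group means, Pearson correlations between pairs ran from -0.46 (Igfbp3 with Igfbp6) to 0.44 (Igfbp2 with Igfbp4). Over clamped arrays alone they ran from -0.50 (Igfbp3 with Igfbp6) to 0.60 (Igfbp5 with Igfbp7). Over basal arrays alone they ran from -0.51 (Igfbp1 with Igfbp3) to 0.53 (Igfbp1 with Igfbp2), with Igfbp5 and Igfbp7 at -0.46. Igfbp1 and Igfbp3, neighbouring coding genes on chromosome 11, had a correlation of -0.23 (Spearman -0.29). Igfbp2 and Igfbp5, neighbours on chromosome 1, had 0.07 (Spearman -0.00). These values share arrays and normalisation and are descriptions.

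Likeness was searched among 10339 named genes with a mean above the gene median of 1.83. Those whose deviations most resembled Igfbp1 were Ppp1r15a (r = 0.77, Spearman 0.65), Nedd4l (0.73, Spearman 0.76) and Arhgap33os (0.73, Spearman 0.67). Ppp1r15a encodes the GADD34 phosphatase subunit of the stress response, and Nedd4l a ubiquitin ligase. Ppp1r15a had r = 0.86 over the 16 clamped and 0.75 over the 16 basal arrays. For Igfbp3 the most alike were Kyat1 (0.68, Spearman 0.41), Asns (0.67, Spearman 0.48), the asparagine synthetase gene, and Mmd2 (0.66, Spearman 0.37). The likeness of Kyat1 lay in the clamped arrays (r = 0.84) and not in the basal ones (r = -0.26).

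Igfbp4 was most like Hpn (0.80), which encodes the liver protease hepsin, Ctsb (0.75), the cathepsin B gene, and Eif4ebp2 (0.75). Igfbp2 was most like Apom (0.67), Gstp1 (0.65) and Plvap (0.64). Igfbp5 was most like Rnf114 (0.68), Smim1 (0.63) and Opa3 (0.62), with Smim1 at 0.86 over basal and 0.15 over clamped arrays. Igfbp6 was most like Cd200 (0.63), Atn1 (0.60) and Efemp1 (0.59), and Igfbp7 like Capn2 (0.61), Gspt1 (0.59) and Crnkl1 (0.57). Each gene was picked as the highest of 10339, so these values are high by selection. Arhgap33os, Mmd2 and Cd200, with means of 1.98, 2.03 and 1.87, stood only just above the gene median of 1.83.

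Of the IGF ligands, receptors and the ternary complex, 7 genes were measured and Igfals alone passed, falling in clamped mice of both gavages. Over all genes 7.57% passed in palm oil mice and 8.75% in control mice, so this count is not read as a trait of the list. Igfals had 6.10, 6.75 and 6.94 as lowest, median and highest value in clamped and 7.19, 7.53 and 7.75 in basal palm oil mice, and 4.25, 6.36 and 6.76 in clamped and 7.06, 7.43 and 7.72 in basal control mice. Every clamped mouse was below every basal mouse of its gavage. It fell by 0.83 log2 units (SE 0.20, limma adjusted p = 0.00697) in palm oil mice and by 1.27 (SE 0.23, limma adjusted p = 2.59e-04) in control mice. Without the arrays over 6 in acinar markers the differences were -0.91 and -1.16 and did not pass (limma adjusted p = 0.151 and 0.0734), and against a minimum fold of 1.3 the palm oil mice did not pass either (limma adjusted p = 0.739). Without replicate 6 of the clamped control mice, where Igfals was at 4.25, the difference in control mice was -0.96 (limma adjusted p = 2.32e-05).

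Igf1, the liver's main IGF, averaged 8.65 ± 0.19 in clamped and 8.54 ± 0.20 in basal palm oil mice, and 8.58 ± 0.14 in clamped and 8.59 ± 0.16 in basal control mice. Its clamped minus basal differences were 0.10 (SE 0.09) and -0.01 (SE 0.10), neither past the test. Igf2r, the receptor that clears IGF2, had differences of -0.33 (SE 0.12, limma adjusted p = 0.0832) in palm oil mice and -0.26 (SE 0.13, limma adjusted p = 0.259) in control mice. Igf2r passed in 7 of 48 alternatives in palm oil mice, among them the split of the basal arrays as a block (-0.44, limma adjusted p = 0.0121). Those 7 include a threshold loosened to 0.1, where the limma adjusted p was still 0.0832. In control mice Igf2r passed in 1 of 48, that same block (-0.45, limma adjusted p = 0.0445). Insr, Igf1r, Igf2 and Insrr did not pass either. Group means of Igf1r, Igf2 and Insrr lay between 1.09 and 1.76, under the gene median of 1.83, so their lack of a call shows little.

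Of 9 proteases that cut IGFBPs and their inhibitors, only Adamts1, a secreted metalloprotease, passed, beside 7.57% of all genes in palm oil mice and 8.75% in control mice. Pappa, Pappa2, Stc1, Stc2, Htra1, Adam12 and Adam28 had group means between 0.91 and 1.67, under the gene median of 1.83. How far those stood above background is unknown, so their lack of a call shows little. Adamts1 had more signal. Adamts1 averaged 4.15 ± 0.34 in clamped and 3.23 ± 0.27 in basal palm oil mice and rose by 0.92 (SE 0.14, limma adjusted p = 3.09e-05). In control mice it averaged 3.76 ± 0.35 in clamped and 3.22 ± 0.30 in basal mice and rose by 0.54 (SE 0.16, limma adjusted p = 0.0315), a call lost in 12 of 48 alternatives, among them leaving out any of basal control replicates 1, 3, 4 and 6 or clamped control replicates 2 and 5 (differences 0.44 to 0.53, limma adjusted p 0.0515 to 0.0933). Pappa, the protease that cuts IGFBP4, averaged 1.38 ± 0.38 in clamped and 1.13 ± 0.38 in basal palm oil mice and did not pass.

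Of 12 relatives that share the IGFBP domain, Ccn2, the connective tissue growth factor gene, was the one that passed. That is near the 7.57% of all genes that passed in palm oil mice and 8.75% in control mice. Ccn3, Ccn4, Ccn5, Ccn6, Htra4, Kazald1 and Igfbpl1 had group means between 1.03 and 1.67, under the gene median of 1.83, so their lack of a call shows little. Ccn2 averaged 5.09 ± 0.34 in clamped and 3.63 ± 0.35 in basal palm oil mice and rose by 1.46 (SE 0.17, limma adjusted p = 1.25e-07). In control mice it averaged 4.89 ± 0.43 in clamped and 4.07 ± 0.34 in basal mice and rose by 0.82 (SE 0.19, limma adjusted p = 0.00341). Averaged over all probe sets of the gene, the difference in control mice was 0.36 and did not pass (limma adjusted p = 0.121), nor did 0.82 against a minimum fold of 1.3 (limma adjusted p = 0.462).

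Igfbp1 is known to answer to several signals, and lists of other genes that answer to each were set beside it. Which of these signals, if any, lay behind the Igfbp1 difference was not tested. Over all genes 3.76% rose and 3.8% fell in clamped palm oil mice, and 4.66% rose and 4.09% fell in clamped control mice. Of 10 genes listed as lowered by insulin through FOXO1, 3 rose and 1 fell in clamped palm oil mice, with a median difference of 0.13. In clamped control mice 2 rose and 1 fell, with a median of 0.02. The list was set from outside these data, and Trib1 is among the risen genes in both gavages. Trib1, a pseudokinase gene, rose by 1.18 (SE 0.11, limma adjusted p = 6.99e-09) and 1.17 (SE 0.13, limma adjusted p = 1.20e-07). G6pc, the glucose-6-phosphatase of glucose output, fell by 1.81 (SE 0.47, limma adjusted p = 0.0113) and 2.44 (SE 0.53, limma adjusted p = 0.00231).

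In the same list Irs2, the insulin receptor substrate, rose by 1.23 (SE 0.27, limma adjusted p = 0.00255) in palm oil mice, with a difference of 0.90 (SE 0.31, limma adjusted p = 0.0652) in control mice. Pdk4, which restrains glucose oxidation, rose by 0.69 (limma adjusted p = 0.0478) in palm oil mice, a call lost in 24 of 48 alternatives, and by 1.04 (limma adjusted p = 0.00580) in control mice. Igfbp1 and G6pc, both textbook targets of insulin through FOXO1, thus differed in opposite directions between clamped and basal mice. Pck1 of the same list passed in neither gavage (0.09 and -0.05, limma adjusted p = 0.706 and 0.838), nor did Ppargc1a, Insr, Apoc3, Mttp and Sesn3. The G6pc call in palm oil mice was lost without the late basal animals (-1.91, limma adjusted p = 0.0524).

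Glucocorticoid-responsive genes were higher in clamped mice almost throughout the list. Of 11 genes 10 rose in clamped palm oil mice and 9 in clamped control mice, with median differences of 1.00 and 1.13. Tsc22d3 rose by 0.49 (SE 0.15, limma adjusted p = 0.0360) in palm oil mice and did not pass in control mice (0.30, SE 0.17, limma adjusted p = 0.321). Cdkn1a, a cell cycle inhibitor, rose by 3.18 (SE 0.27) and 3.19 (SE 0.30). Dusp1, a phosphatase that switches off MAP kinases, rose by 1.79 (SE 0.19) and 1.41 (SE 0.22), and the metallothionein gene Mt2 by 1.00 (SE 0.14) and 1.19 (SE 0.15), all with limma adjusted p of 2.62e-05 or lower.

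Genes of the interleukin 6 and acute phase response were also higher. Of 13 measured genes 12 rose in clamped mice of each gavage, with median differences of 0.76 and 0.83. Lcn2, which encodes the acute phase protein lipocalin 2, rose by 4.40 (SE 0.33) and 4.50 (SE 0.38), and the interleukin 1 receptor gene Il1r1 by 2.33 (SE 0.16) and 2.15 (SE 0.18). Of 8 neutrophil markers 6 rose in clamped mice of each gavage, with median differences of 1.39 and 1.36, and their part in these values was not tested.

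The ATF4 list of the integrated stress response had 6 of 11 genes up in clamped palm oil mice and 5 in clamped control mice. Among all genes 3.76% and 4.66% rose. No gene of the list passed as lower, but Trib3 had differences of -0.50 (SE 0.19, limma adjusted p = 0.126) and -0.30 (SE 0.22, limma adjusted p = 0.499). Ddit4, which restrains mTORC1, rose by 2.47 (SE 0.28) and 2.26 (SE 0.32). Chac1, a glutathione-degrading enzyme, rose by 0.87 (SE 0.18) and 1.26 (SE 0.21), and Atf4 itself by 0.41 (SE 0.09) and 0.59 (SE 0.10).

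Of 12 measured targets of hypoxia-inducible factors, 5 rose in clamped mice of each gavage and 1, Egln3, fell in palm oil mice. Pfkfb3, a glycolytic regulator, rose by 1.85 (SE 0.24) and 1.84 (SE 0.27), and the adrenomedullin gene Adm by 0.93 (SE 0.13) and 0.77 (SE 0.15). The median differences of this list were 0.05 and 0.20, beside -0.02 over all genes.

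The growth hormone list held 8 genes, of which Ghr, Jak2, Stat5a and Stat5b carry the signal and Socs2, Cish, Igf1 and Igfals are raised by it. Socs2 (1.35, SE 0.38, limma adjusted p = 0.0241) and Cish (1.33, SE 0.29, limma adjusted p = 0.00258), both feedback inhibitors, rose in clamped palm oil mice. Ghr, the growth hormone receptor gene, fell there by 0.40 (SE 0.11, limma adjusted p = 0.0168), as did Igfals. In control mice only Igfals passed. No gene of any of these lists passed the test for palm oil, in either state, or for the interaction.

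**Figure D5:**
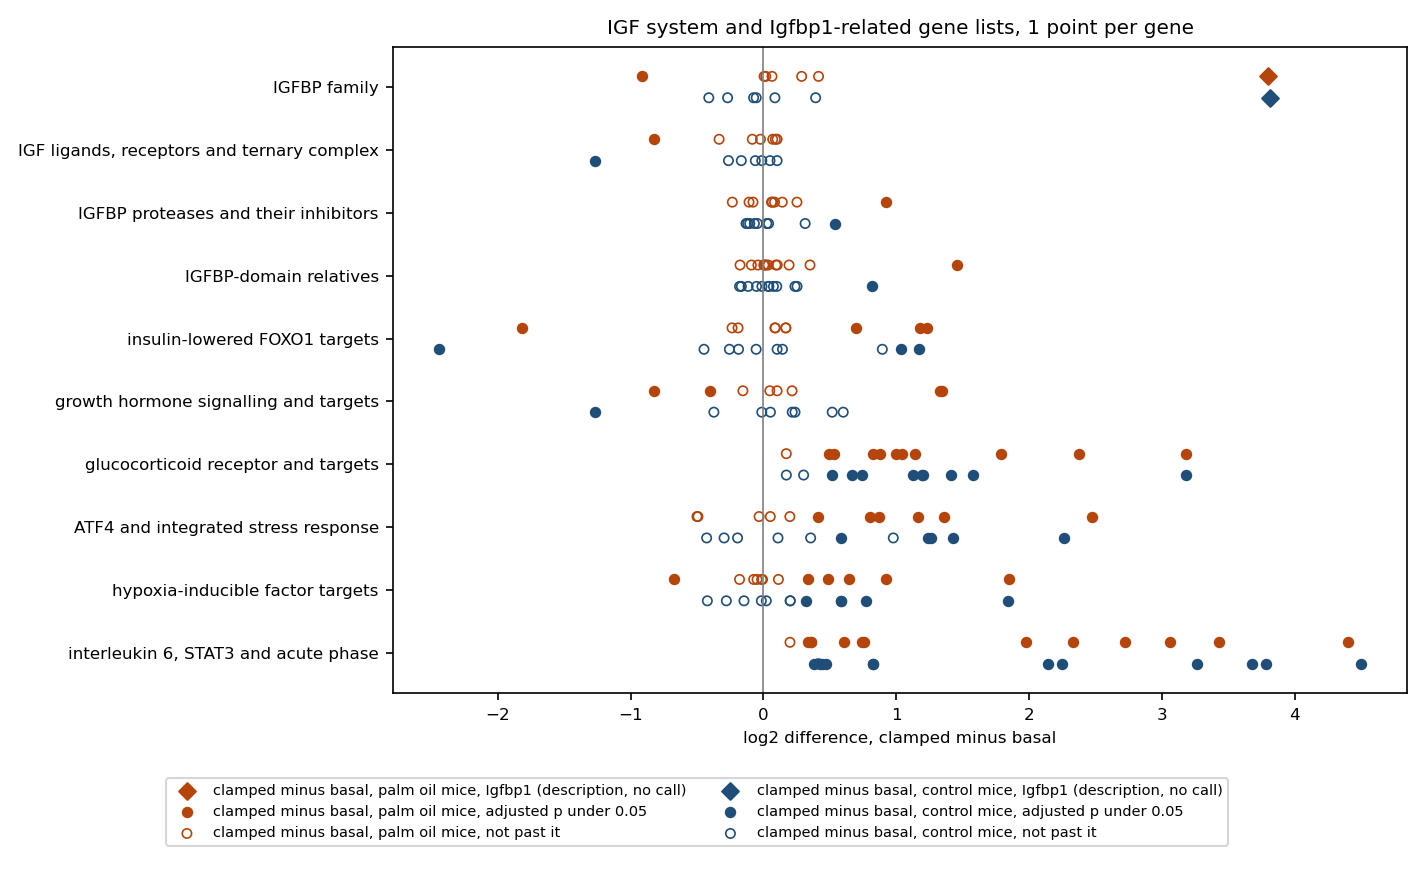
Clamped minus basal differences (log2 units, horizontal axis), 1 point a gene, for the IGFBP family and 9 gene lists, in palm oil mice (upper row of each list) and control mice (lower row). Filled circles passed the limma test at an adjusted p of 0.05, open circles did not, and diamonds are Igfbp1, given as a description with no call. The glucocorticoid and acute phase lists lie almost wholly to the right of 0, with medians of 0.76 to 1.13, while the IGF ligand, protease and IGFBP-domain lists lie around 0 except for Igfals, Adamts1 and Ccn2.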

How the data were processed

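Liver RNA of 32 mice was extracted with a miRNeasy kit and DNase treatment, amplified with a NuGEN whole-transcript kit and hybridised to Affymetrix mouse gene arrays, per the labels' protocols. The submitters' processing notes name RMA and, as software, Affymetrix Expression Console (version 1.3.0.187), and the table the authors deposited holds log2 values. The genome build behind the probe sets is not given in the sources used here.

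Of 41345 probe sets, 23521 had 1 gene symbol in the platform annotation, 1814 had several and 16010 were not listed, and probe sets with 1 symbol gave 22180 genes. Where a gene had several probe sets (1082 genes), the one with the highest mean was used. Array medians ran from 1.65 to 1.77. The number of arrays limits the precision.

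Groups were fitted with limma 3.58.1 (R 4.3.3, lmFit and eBayes) on all 32 arrays, 1 mean a group, 28 residual degrees of freedom, for 5 contrasts, with Benjamini-Hochberg adjustment over all genes at 0.05 and 95% intervals. The fit was tested on simulated data. Promoter sequences came from RefSeq tables on GRCm38.p6. Python 3.11.15 with scipy 1.17.1 was used for the exact rank sum test and descriptions.

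The members, the gene lists and the tests were chosen with earlier results of these data known, so the clamped against basal difference of Igfbp1, although fitted with the rest of the table, is given with no p-value and no call. All 7 members were named. Of each list, up to 4 genes with the smallest p in clamped minus basal of control mice were eligible, with any IGF ligand, receptor or protease called, and of each member the 3 genes most like it. Igf1, Igf1r, Igf2, Pappa, Socs2, Egln3, Trib3, Tsc22d3, Pck1, Ppargc1a, Apoc3, Mttp and Sesn3 were named after their values were seen. Alternatives covered the probe set choice, scaling, the eBayes prior, array weights, animal number, acinar marker level, a minimum fold and a threshold of 0.1. They also covered a replicate block, an exact rank sum test, and fits that drop 1 array at a time.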

Additional observations from a re-analysis of the deposited data

Results flagged for a closer look

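Of 40 groups of arrays examined (the 7 IGFBP genes, Igfals, Adamts1 and Ccn2 in 4 groups each), 2 had a lowest or highest array far from the rest. Chance alone flags about 1 in 20 such groups. In clamped control mice the lowest Igfbp1 value was 8.57, with a gap to the next array of 0.569 of the group's range. In the same group the lowest Igfals value was 4.25, with a gap of 0.649 of the range. Both belonged to replicate 6. The Igfbp1 value was still above every basal mouse, and without this array the Igfals difference between clamped and basal control mice was -0.96, against -1.27 with it.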

How the results depend on the processing

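Counts of IGFBP genes past the threshold between clamped and basal mice include Igfbp1, whose rise was known at the choice of the family, so only Igfbp5 bears on them. In palm oil mice the count was 2, and 1 with a minimum fold of 1.3, where Igfbp5 did not pass. In control mice it was 1, and 2 without the arrays over 6 in acinar markers, where Igfbp5 passed, and under that same alternative the Igfbp1 difference in control mice was 4.56 (SE 0.47) against 3.81. With acinar-rich arrays removed fewer arrays were left. Leaving out each array in turn, the Igfbp1 difference ran from 3.68 to 3.93 in palm oil mice and from 3.50 to 4.05 in control mice, and the Igfbp5 difference in palm oil mice from -0.98 to -0.79. Sign changes of differences not past the threshold were not counted as reversals. Between groups, 44 same-numbered pairs of mice had a mean correlation of 0.01, with 12 over 0.1. The 338 pairs with different numbers had a mean of -0.0013, with 81 over 0.1. These values show no sign of pairing by replicate number, but they cannot decide whether mice were paired. With the replicate number as a block no call of the 6 genes other than Igfbp1 changed in any of the 5 contrasts, and Igfbp5 in palm oil mice was at -0.91 (limma adjusted p = 6.28e-04). Over all alternatives the Igfbp5 difference ran from -0.98 to -0.55 in palm oil mice and from -0.50 to -0.13 in control mice. Over all genes, calls between clamped and basal palm oil mice numbered 1678, against 235 with the minimum fold and 736 without acinar-rich arrays. In control mice they numbered 1940, against 259, 993 and, with the late basal animals (number 44 and up) left out, 1026. Against the minimum fold of 1.3, G6pc, Irs2, Pdk4, Ghr, Cish, Chac1 and Atf4 in palm oil mice and Pdk4, Adm and Atf4 in control mice did not pass. Without acinar-rich arrays G6pc (limma adjusted p = 0.15 and 0.0866) and Pdk4 (0.453 and 0.0627) passed in neither gavage, and Irs2 (0.0841), Chac1 (0.202) and Atf4 (0.163) did not pass in palm oil mice, nor Adm (0.104) and Marco (0.0784) in control mice. The Pdk4 call in palm oil mice was lost without any of basal palm oil replicates 2, 5, 6, 8 and 9, clamped palm oil replicates 3, 5, 6 and 8, basal control replicates 2, 3, 4, 5 and 7 or clamped control replicates 1 and 2 (0.53 to 0.70). In control mice Irs2 passed in 8 and Ghr in 13 of 48 alternatives, both counts including a threshold loosened to 0.1. At that threshold the limma adjusted p was still 0.0652 for Irs2 and 0.0533 for Ghr. Irs2 also passed without clamped palm oil replicates 2 or 6, clamped control replicate 6 or basal control replicate 1 (0.90 to 1.06). Ghr also passed without basal palm oil replicates 4 or 9, clamped palm oil replicate 2, clamped control replicate 4 or basal control replicates 4 or 7 (-0.42 to -0.37). The low signal of Igfbp5 and Igfbp6 limits what their values show.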

Other observations

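Igfbp3 differed between the states more in spread than in level, a pattern picked out after its values were seen and given with no test. The SD of its deviations from the group means was 0.434 over the 16 clamped and 0.103 over the 16 basal arrays, a ratio of 4.24. Of 11090 brighter genes 0.09% had a ratio as high, and the median ratio was 0.974. The ratio was 1.73 for Igfbp6, 1.32 for Igfbp4 and 0.806 for Igfbp7. It was 0.737 for Igfbp1, 0.631 for Igfbp2 and 0.553 for Igfbp5.

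Kupffer cell markers had 3 of 10 genes higher in clamped palm oil mice and 4 in clamped control mice, led by Marco, a scavenger receptor of macrophages (1.65, SE 0.30, and 1.62, SE 0.34). Stellate cell and fibroblast markers, the cells most often linked to Igfbp5 and Igfbp6, had 1 of 12 genes higher and 1 lower in clamped palm oil mice and none past the test in control mice. Cholangiocyte markers had 1 of 5 measured genes higher in clamped mice of each gavage. The single red blood cell marker measured did not pass. For scale, 3.76% of all genes rose and 3.8% fell in clamped palm oil mice, and 4.66% rose and 4.09% fell in clamped control mice.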
